A study of Mus musculus with 6 samples.

Results

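The 10 genes Myod1, Myog, Msc, Tcf12, Id1, Id2, Id3, Id4, Mef2a and Mef2c were followed in cultured muscle-derived stem/progenitor cells (MDSPCs) of the mouse, out of 21485 genes that every sample's matrix listed. They were taken by name as the muscle-type basic helix-loop-helix (bHLH) factors, their dimer partner, their inhibitors and the Mef2 factors that act with them, and all 10 were found. MDSPCs are slowly adhering cells, obtained by passing the non-adherent fraction of digested skeletal muscle from flask to flask. The study grew 3 such populations of young and 3 of old mice in proliferation medium containing bovine and horse serum and chick embryo extract, and profiled each population once with a droplet-based 3′ single-cell kit. No allele, transgene or drug separates the groups in the labels, which give no mouse age, sex or strain and do not say how many mice or clones a population came from. Each population was 1 sample, called a biological replicate in its title. For old against young, p-values are therefore set against the spread between these 6 populations. For classes of cells compared within populations, they are set against how the class difference varies from population to population. The titles of old replicates 2 and 3 carry codes with a shared stem (NA-f2 and NA-f3) that is not explained, so whether the 2 share a source is not known here. Codes of a like form (Y1-1 and O1-1), also not explained, stand in the titles of young and old replicate 1.

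MyoD (Myod1) and myogenin (Myog) are bHLH transcription factors that bind E-box DNA as dimers with E proteins such as HEB (Tcf12). Id proteins have the helix-loop-helix but no basic region, so they hold E proteins in dimers that do not bind DNA, while musculin (Msc, also called MyoR) is a bHLH repressor that occupies E-boxes itself. In muscle precursors MyoD marks commitment and myogenin the onset of terminal differentiation. Mef2 factors bind A/T-rich sites and act together with MyoD and myogenin on muscle genes.

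After filtering, 61673 of 62849 cell barcodes were kept, between 8674 and 12541 per population, with median totals of 13001 to 19951 unique molecular identifiers (UMIs, tags that count RNA molecules). Any pair of libraries shared 23 to 35 barcodes. Young replicate 1 and old replicate 1 were counted by Cell Ranger 7.0.0 on a shorter gene list, and the other 4 by version 7.2.0 on a longer one. Summed markers of endothelial cells (1.54 to 9.41 CPM, the UMIs of a gene scaled to a common total per library), immune cells (1.40 to 8.25 CPM) and Schwann cells (0.711 to 3.15 CPM) were low in all 6, with Sox10 at 3 UMIs or fewer everywhere. The 6 myogenic markers together, Myod1 among them, reached 1107, 796 and 1496 CPM in young replicate 2, old replicate 2 and old replicate 3, but only 135, 109 and 140 CPM in young replicate 1, young replicate 3 and old replicate 1. Of these 6, Myf5 was at 3 UMIs or fewer in young replicate 1, and Pax7 was nearly absent from young replicate 3. Fibro-adipogenic markers summed to 206 to 434 CPM, with Gsn the highest of them in each sample (198 of 434 CPM in young replicate 2) and Lum at 3 UMIs or fewer in every sample. Smooth muscle and pericyte markers, mostly Acta2, ranged from 40.3 to 1505 CPM and were highest in old replicate 3. Mature muscle fibre markers, led by Acta1 or Ttn, summed to 227, 1509 and 40.3 CPM in young replicates 1, 2 and 3 and to 53.2, 863 and 2554 CPM in old ones, and so were high in the same 3 populations as the myogenic markers. What part these marker differences have in the results below was not tested.

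The sequences ahead of Myog and Mef2c are shown because these 2 genes carry the strongest results on co-detection below. They are the bases before the annotated gene start on GRCm38 (RefSeq promoter windows, 5′ to 3′ on the plus strand), at chr1:134289754-134289988 for Myog and chr13:83503784-83504033 for the first of 3 Mef2c windows. Capitals mark each E-box (CANNTG) and each match to the MEF2 consensus without its last base, both searched on both strands.
Myog: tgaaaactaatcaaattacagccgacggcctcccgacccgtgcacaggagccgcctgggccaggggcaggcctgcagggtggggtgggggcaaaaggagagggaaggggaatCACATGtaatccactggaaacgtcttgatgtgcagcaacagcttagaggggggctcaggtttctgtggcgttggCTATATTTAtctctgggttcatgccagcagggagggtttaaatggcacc
Mef2c: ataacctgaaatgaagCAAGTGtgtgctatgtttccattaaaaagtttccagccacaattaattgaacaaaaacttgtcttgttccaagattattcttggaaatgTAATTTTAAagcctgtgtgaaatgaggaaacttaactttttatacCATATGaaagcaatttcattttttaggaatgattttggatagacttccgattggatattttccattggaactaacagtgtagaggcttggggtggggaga
Counted back from the RefSeq start, the Myog window held CACATG from base -138 to -133 and CTATATTTA from -64 to -56. A second E-box, CAGTTG from -12 to -7, lies inside the first exon of the GENCODE model and is not in the printed stretch. The Mef2c window held CAAGTG from -234, TAATTTTAA from -145 and CATATG from -100. Neither window held the full MEF2 consensus, nor did any other window of the group. The MEF2 matches thus rest on a looser form of the motif. Among 32851 windows of 250 bases (27025 genes), 66.2% held a CANNTG. The full MEF2 consensus was in 2.92% of them and the form without its last base in 7.07%. The E-boxes are thus common letters, and the looser MEF2 match is less common than they are but more common than the full one. No binding was measured here, and the matches are a description of letters. RefSeq windows were found for 7 of the 10 genes. The other windows of the group held few matches, and the other Mef2c windows held no MEF2 match in either form. The first Tcf12 promoter and the Id2 promoter each had a CAGCTG E-box, a motif in 13.0% of all windows, and the windows of Mef2a, Id3 and Id4 had neither motif.

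Myod1 (ENSMUSG00000009471, chr7:46376474-46379099 on GRCm38) was low in 3 populations (2 young, 1 old) and high in 3 (1 young, 2 old). Its level was 50.8, 459 and 45.7 CPM in young and 64.1, 468 and 909 CPM in old replicates 1, 2 and 3, the order in which all sets of 3 values are given below. The order was young replicates 3 and 1 with old replicate 1 at the bottom, then young replicate 2 and old replicate 2, and old replicate 3 on top. The highest population was 19.9-fold above the lowest, and the groups overlapped. Each population has a single value, so the order within the low trio and within the middle pair has no spread against which to be judged.

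To separate the number of cells from the amount of RNA, each cell was thinned at random to 5000 UMIs, which left out 149 to 373 shallower cells per population. A UMI of Myod1 was then seen in 18.3%, 79.3% and 15.6% of young and 15.4%, 75.3% and 92.4% of old cells. Without thinning the shares were 30.1%, 94.8% and 34.4%, and 23.3%, 90.2% and 95.9%. Positive cells held more UMIs in the 3 populations with high Myod1 than in the other 3, with 1.62, 2.90 and 1.52 Myod1 UMIs per positive cell (young) against 2.15, 3.14 and 5.06 (old). Both measures thus separated the same high and low trios as the summed level, but the order within a trio differed: old replicate 1 had the lowest share and the most UMIs per positive cell of its trio. A share with a UMI is still not a share of expressing cells, since a cell with fewer transcripts is missed more often. Exact (Clopper-Pearson) 95% intervals of the shares of the 10 genes reached at most 1.07 percentage points to either side, and they cover counting error only.

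Myog (ENSMUSG00000026459, chr1:134289989-134292548) varied most of the 10 genes, 150-fold between its lowest and highest population. It stood at 28.4, 344 and 34.8 CPM (young) against 6.25, 177 and 935 CPM (old). Old replicate 1 was the lowest and old replicate 3 the highest, so the old group spanned the whole range and enclosed the young one. A Myog UMI was seen in 3.54%, 20.3% and 5.26% of young and 0.646%, 14.7% and 45.9% of old cells at 5000 UMIs (4.89%, 29.4% and 10.1%, and 1.15%, 22.4% and 56.0% unthinned). The 0.646% of old replicate 1 rests on 64 of 9906 cells, with an exact 95% interval of 0.498% to 0.824%.

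Myog was unevenly spread over cells. A positive cell held on average 5.55, 9.20 and 4.49 Myog UMIs (young) against 6.22, 6.09 and 10.8 (old), and up to 83 in old replicate 3. The variance over cells was 11.9 to 20.8 times the mean for Myog, against 1.90 to 3.01 times for Myod1 and 1.19 to 1.29 times for Tcf12. A value of 1 is what counting noise alone gives. Even old replicate 1, where only 64 cells had a UMI, had 6.22 per positive cell. No cell class without Myog could be set apart here, so the share due to free RNA was not measured.

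Tcf12 (ENSMUSG00000032228, chr9:71842688-72111871), the E-protein partner, varied least, 3.90-fold. Its level was 55.1, 215 and 135 CPM (young) against 82.1, 156 and 186 CPM (old). Both populations on the shorter gene list were lowest. At 5000 UMIs it was seen in 24.4% to 62.3% of cells.

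Msc (ENSMUSG00000025930, chr1:14753346-14755992), the bHLH repressor, was barely detected. All kept cells together held 10, 20 and 14 Msc UMIs in the young populations and 28, 27 and 1 in the old, or 0.185 CPM at most. In old replicate 3, the population highest in Myod1 and Myog, no thinned cell had a UMI, which allows a share of up to 0.0303% of cells with an Msc UMI at this depth by the exact interval, and sets no limit on cells that express it. These counts are too low for a statement about cells, and all 9 pairs with Msc were left out of the co-detection results.

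Id1 and Id3 were seen in most cells of every population, Id2 in most cells of 4 of them and Id4 in few. Id1 (ENSMUSG00000042745, chr2:152736251-152737410) stood at 179, 524 and 572 CPM (young) against 292, 754 and 1128 CPM (old). The 2 highest values lay in old replicates 2 and 3, and the groups overlapped. As for Tcf12, both populations on the shorter gene list were lowest. A UMI of Id1 was seen in 51.5%, 80.1% and 86.6% of young and 68.2%, 91.5% and 97.2% of old cells at 5000 UMIs.

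Id3 (ENSMUSG00000007872, chr4:136143497-136145755) stood at 354, 989 and 1129 CPM (young) against 367, 1926 and 2347 CPM (old). The populations on the shorter list were again the lowest. In young replicate 2 the other genes of chromosome 4 were shifted by 0.16 on the log2 scale. It was seen in 67.8% to 98.7% of cells.

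Id2 (ENSMUSG00000020644, chr12:25093799-25097140) stood at 37.9, 334 and 188 CPM (young) against 93.6, 323 and 251 CPM (old). Its shares at 5000 UMIs were 16.6%, 72.9% and 54.1%, and 29.9%, 73.1% and 64.9%. The highest values lay in young replicate 2 and old replicate 2, not in old replicate 3, and the lowest again in the populations on the shorter list. Id4 (ENSMUSG00000021379, chr13:48261228-48266026) was rare at 1.47, 0.936 and 13.4 CPM (young) against 2.91, 6.75 and 1.71 CPM (old). Only young replicate 3, with 6.49% of cells, and old replicate 2, with 3.17%, had it in more than 1.5% of cells. The other genes of chromosome 13 were shifted by 0.33 (log2) in old replicate 2, so that its Id4 and Mef2c values stand beside a shift of the whole chromosome.

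Mef2a (ENSMUSG00000030557, chr7:67231163-67372858) stood at 97.7, 222 and 95.6 CPM (young) against 62.2, 301 and 249 CPM (old). Mef2c (ENSMUSG00000005583, chr13:83504034-83667080) stood at 31.4, 63.8 and 18.3 CPM and at 9.74, 60.5 and 122 CPM. Both were lowest in old replicate 1 and higher in the 3 populations with high Myod1 than in the other 3. Mef2a was seen in 25.1% to 61.5% of cells at 5000 UMIs and Mef2c in 4.25% to 24.8%.

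**Figure D1:**
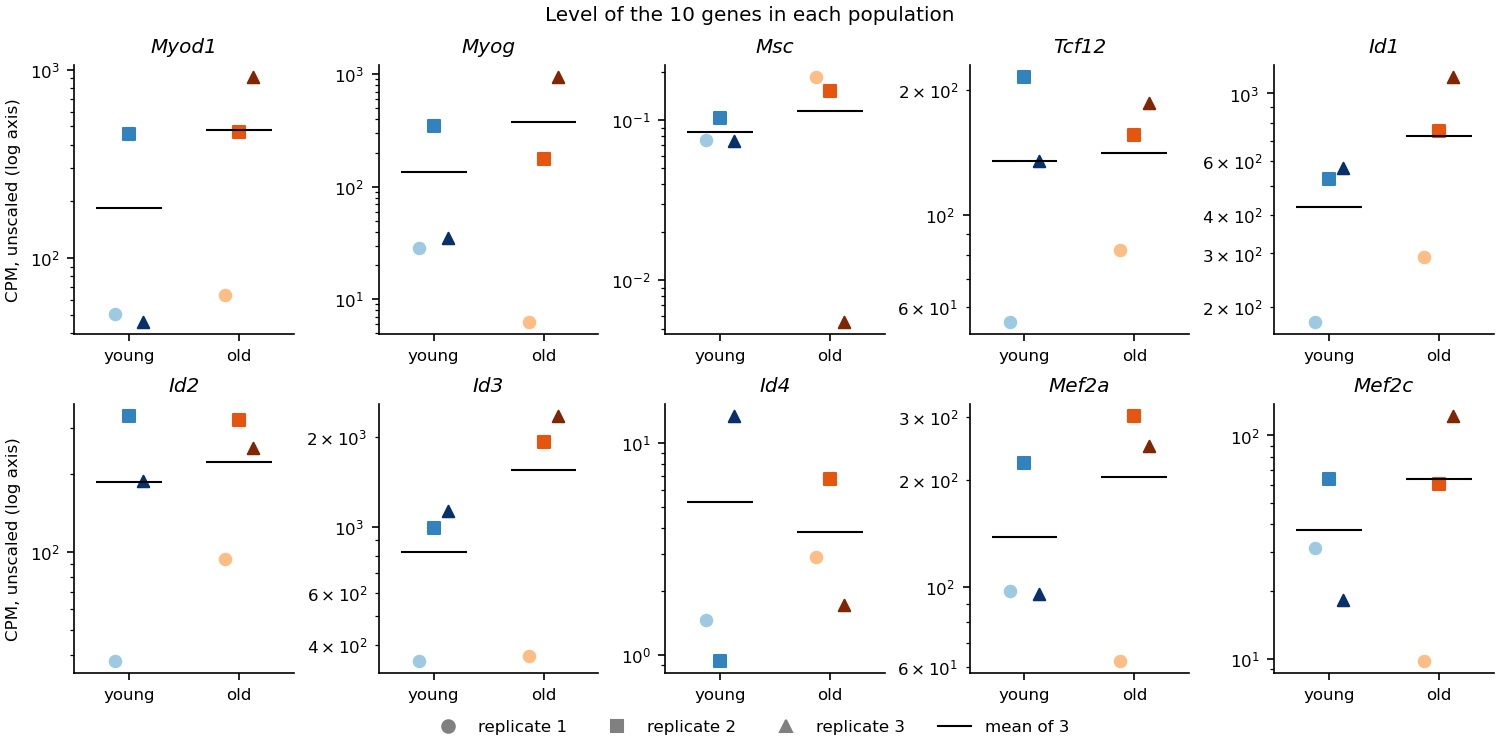
Level of each of the 10 genes as CPM (log axis, each panel with its own range) by age group. Points are the 6 populations, shapes the replicate number and lines the mean of 3. Myod1 lies between 45.7 and 64.1 CPM in 3 populations and between 459 and 909 CPM in the others, and the young and old points overlap in every panel.

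For none of the 10 genes was a difference between old and young populations beyond the spread between populations detected. Of 14512 genes tested with edgeR's quasi-likelihood test, 0.00689% passed an adjusted p of 0.05. That is 1 gene higher in old (Cyba, not a member, named after its value was seen) and 0 lower, while 512 had an unadjusted p under 0.05 and DESeq2 called 180 higher and 39 lower. No member was called by either tool or under any alternative. The groups did not overlap for 0 of the 10 members, against 5.93% of all genes tested.

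Myod1 had an old-over-young log2 fold change of 0.99 (SE 0.92). It ranged from 0.32 without young replicate 3 to 2.16 without young replicate 2. Id1 followed with 0.68 (SE 0.28, unadjusted p = 0.0541, adjusted p = 0.99986) and Id3 with 0.62 (SE 0.36). Leaving out any population kept Id1 and Id3 higher in old, at 0.40 to 0.86 and 0.37 to 1.09. The upper ends came without old replicate 1, where the fit's gene list term fits young replicate 1 fully and takes it out too. Id2 was at 0.42 (SE 0.34), Mef2a at 0.22 (SE 0.55), Mef2c at 0.22 (SE 0.96) and Tcf12 at 0.08 (SE 0.28). Myog, at 0.44 (SE 1.52), turned to -1.10 without old replicate 3 and to -0.77 without young replicate 3. Without the gene list term Myog was at 1.503 and Myod1 at 1.38, and on the longer gene list alone they were at 1.62 and 1.49. The order of the 2 thus changed between settings. With the term kept, leaving out young or old replicate 1 gave the longer-list values again, since the term then fits the other one fully. Msc was at 0.18 (SE 1.08) on counts near 0, and Id4 at -0.26 (SE 1.03). The median over the 10 was 0.32, against -0.01 over all genes. With 3 populations a group the fit was weak: on simulated counts it recovered 0% of 100 genes changed by 1 on the log2 scale and 5% of 100 changed by 2.

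The related genes were not called either. Of the 19 bone morphogenetic protein (BMP) and SMAD genes, the pathway that induces Id genes, edgeR called 0, although 2 had an unadjusted p under 0.05 and DESeq2 called 2. It also called 0 of 11 other repressors and inhibitors that act on E-boxes or bHLH factors, not all of them bHLH proteins (1 at an unadjusted p under 0.05, 0 by DESeq2). Of 4 other bHLH partners, 7 Mef2 relatives and cofactors and 24 early differentiation genes, 0 were called by edgeR or DESeq2 and 0 had an unadjusted p under 0.05. The same held for 11 progenitor, 20 S phase and 20 G2 and mitosis genes.

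Myod1 and Myog were read together in each cell, which sorts cells into 4 states at 5000 UMIs. In young replicates 1, 2 and 3 neither gene was seen in 80.4%, 19.0% and 81.9% of cells, Myod1 alone in 16.0%, 60.7% and 12.8%, both in 2.24%, 18.6% and 2.83%, and Myog alone in 1.30%, 1.63% and 2.43%. In old replicates 1, 2 and 3 neither was seen in 84.4%, 23.9% and 5.99%, Myod1 alone in 14.96%, 61.5% and 48.1%, both in 0.485%, 13.9% and 44.2%, and Myog alone in 0.162%, 0.823% and 1.64%. Cells with Myog alone were thus rare among all cells everywhere, while the shares with neither gene and with both ranged widely. Of the cells with Myog, those without Myod1 were 110 of 299, 174 of 2158 and 258 of 559 in the young populations. In the old ones they were 16 of 64, 70 of 1250 and 200 of 5581.

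**Figure D2:**
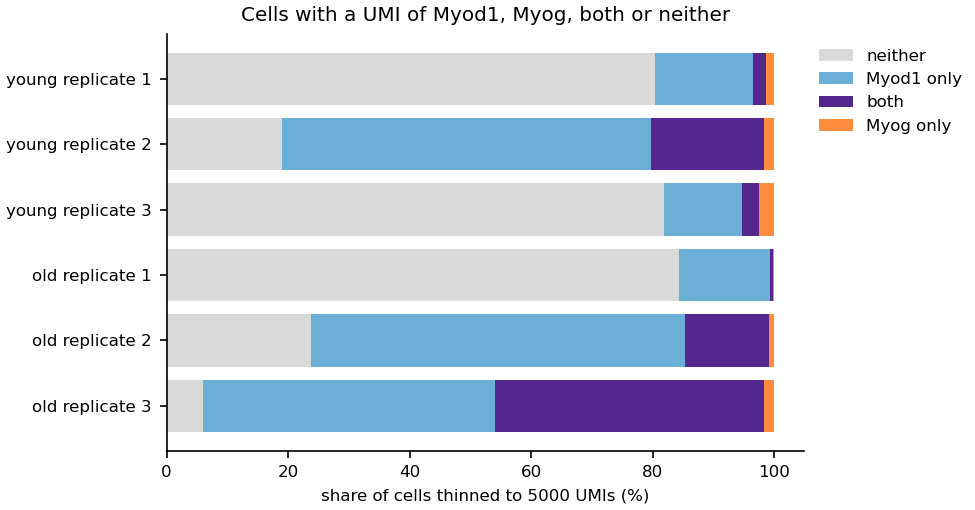
Share of cells (%, thinned to 5000 UMIs) with a UMI of neither gene, of Myod1 only, of both or of Myog only, as stacked bars for the 6 populations. Cells with both make up 44.2% in old replicate 3 and 0.485% in old replicate 1.

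The share of cells with Myog was higher at each step of Myod1 UMIs in all 6 populations, in bins with enough cells. In young replicate 2 it went from 7.90% of cells without Myod1 to 11.4%, 16.5%, 26.1% and 49.2% of cells with 1, 2, 3 to 4 and 5 or more Myod1 UMIs. In old replicate 3 the same steps gave 21.5%, 29.9%, 38.8%, 43.3% and 56.7%. In young replicate 3 they ran from 2.88% to 78.9%, the top bin holding 57 cells, and in old replicate 1 from 0.191% to 16.5% of 127 cells. Even with 5 or more Myod1 UMIs, most cells of young replicate 2, old replicate 1 and old replicate 2 (37.8% positive) had no Myog UMI.

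Seen against the product of the separate shares, Myod1 and Myog fell in the same cell 3.46, 1.16 and 3.44 times as often as independence gives (young) against 4.86, 1.25 and 1.04 times (old). In old replicate 3 a Myod1 share of 92.4% leaves little room for a ratio above 1. The shares of 79.3% in young replicate 2 and 75.3% in old replicate 2 cap the ratio as well, at a higher level. Over the 6 populations the mean was 2.54 ± 1.60 (SD, n = 6).

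Myog was also read against Mef2c. Where 5 or more cells with both were expected, which held in 5 populations, the ratio was 1.74 to 6.07, with a mean of 3.01 ± 1.74 (SD, n = 5). Of cells with 5 or more Mef2c UMIs, 97.5% had Myog in young replicate 1, 99.2% in young replicate 2, 94.2% in old replicate 2 and 97.4% in old replicate 3. Without Mef2c the shares there were 1.70%, 14.6%, 9.29% and 34.6%. Young replicate 3 and old replicate 1 held only 19 and 5 cells with 5 or more Mef2c UMIs, too few for a share. In young replicate 3 the share with Myog was 4.67% without Mef2c and 20% at 2 Mef2c UMIs (70 cells). In old replicate 1 it was 0.432% without Mef2c and 2.07% at 1 UMI. Myog and Mef2a met 1.25 to 2.30 times as often as independence gives, above 1 in all 6. The Mef2 genes met each other 1.19 to 1.496 times as often.

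The Id genes were met as follows, where 5 or more cells were expected. Myod1 was co-detected with Id1 (ratio 1.01 to 1.31), Id2 (1.02 to 2.15) and Id3 (1.00 to 1.28) above independence in 6 of 6 populations each. Myog was above with Id1 in 5 of 6 (0.999 to 1.38), with Id2 in 3 of 6 (0.90 to 1.83) and with Id3 in 4 of 6 (0.995 to 1.24). Id1 and Id3 were seen in most cells, which limits how far above 1 these ratios can lie. Id4 had a mean ratio of 0.97 with Myod1 (above 1 in 3 of 6) and 0.97 with Myog (above 1 in 2 of 4). The difference between Myod1 and Myog in this respect was not tested. The Id genes met one another above independence in all 6 populations for Id1 with Id2 (1.01 to 1.26), Id1 with Id3 (1.00 to 1.12), Id1 with Id4 (1.01 to 1.09) and Id2 with Id3 (1.01 to 1.20). Id3 with Id4 was above 1 in 5 of 6 (0.92 to 1.18) and Id2 with Id4 in 4 of 6 (0.92 to 1.20).

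Of the 45 pairs among the 10 genes, 34 could be evaluated in all 6 populations. Of these, 19 were above 1 in every population, 15 were mixed and 0 were below 1 in every population. Some of the 19 lay barely above 1, such as Tcf12 with Id1 (1.001 to 1.08) and with Id3 (1.002 to 1.05). No such count was made over pairs of other genes. Whether 19 is more than other gene pairs would give was therefore not tested. Unthinned, where cells differ in depth, 30 of the member pairs were above 1 in every population. For comparison, Myog met Mki67, a gene of dividing cells, 0.577 ± 0.279 times as often as independence gives (SD, n = 6; below 1 in 5 of 6), and Cdkn1a, a cell cycle inhibitor, 1.24 ± 0.237 times (above 1 in 6 of 6).

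**Figure D3:**
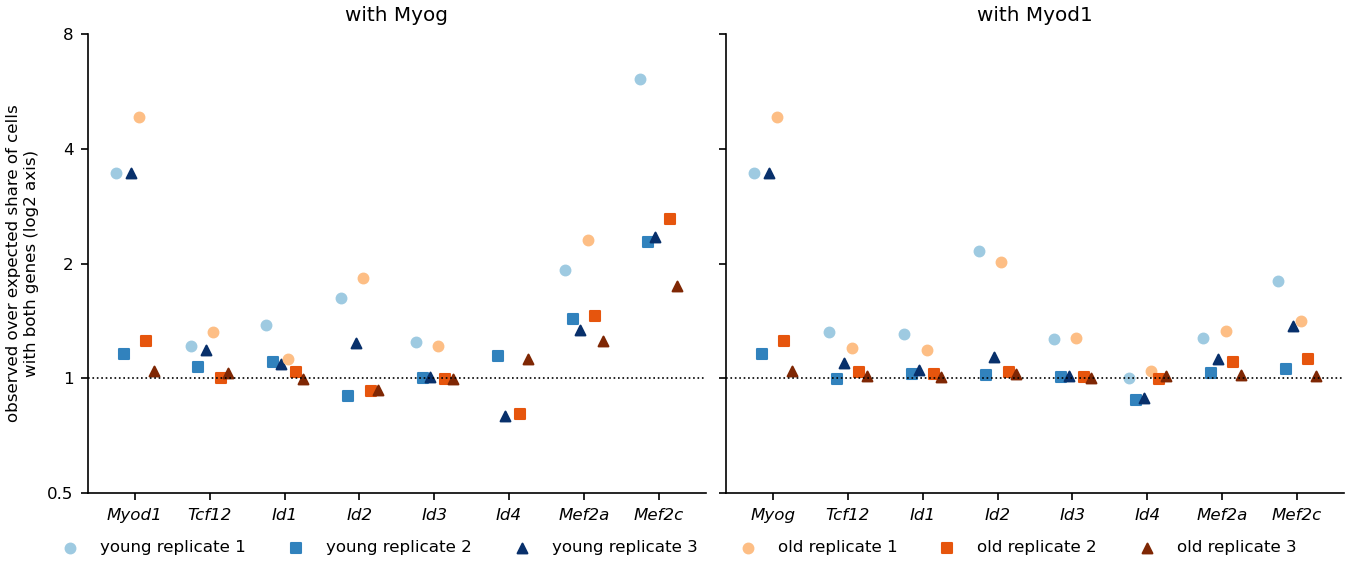
Observed share of cells with both genes over the product of the separate shares (log2 axis), for Myog with 8 genes (left) and Myod1 with 8 genes (right). Points are populations in which 5 or more such cells were expected and the dotted line marks 1. Mef2c with Myog lies between 1.74 and 6.07, and Id1 and Id3 with Myog lie between 0.995 and 1.38.

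The share of cells with Myog was also read against the UMIs of each Id gene. With rising Id1 UMIs from 0 to 5 or more, the share of cells with Myog went up from 11.6% to 30.6% in young replicate 2, from 8.75% to 17.2% in old replicate 2 and from 2.10% to 11.96% in young replicate 1. In old replicate 3 it was 47.0% without Id1, 50.9% at 1 UMI and 43.6% at 5 or more. For Id3 the order turned over in that population: 64.4% of cells without Id3, 80.1% with 1 UMI and 41.2% with 5 or more had Myog. In old replicate 2 the Id3 steps gave 16.2%, 24.8%, 29.1%, 21.5% and 13.3%, with a peak at 2 UMIs. In the other 4 populations the share at 5 or more Id3 UMIs was above that at 0. Id2 ran downwards in young replicate 2 (25.7% to 17.1%), old replicate 2 (17.6% to 10.6%) and old replicate 3 (51.4% to 36.3%), the 3 populations with high Myod1. In the other 3 it was higher in the top bin than without Id2, but these bins were small. The shares were 12.3% (3 to 4 UMIs, 65 cells) against 3.10% in young replicate 1 and 7.44% (121 cells) against 3.77% in young replicate 3. In old replicate 1 they were 3.51% (57 cells) against 0.418%. In young replicate 3 the share at 3 to 4 UMIs, 9.81%, was above that of the top bin.

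**Figure D4:**
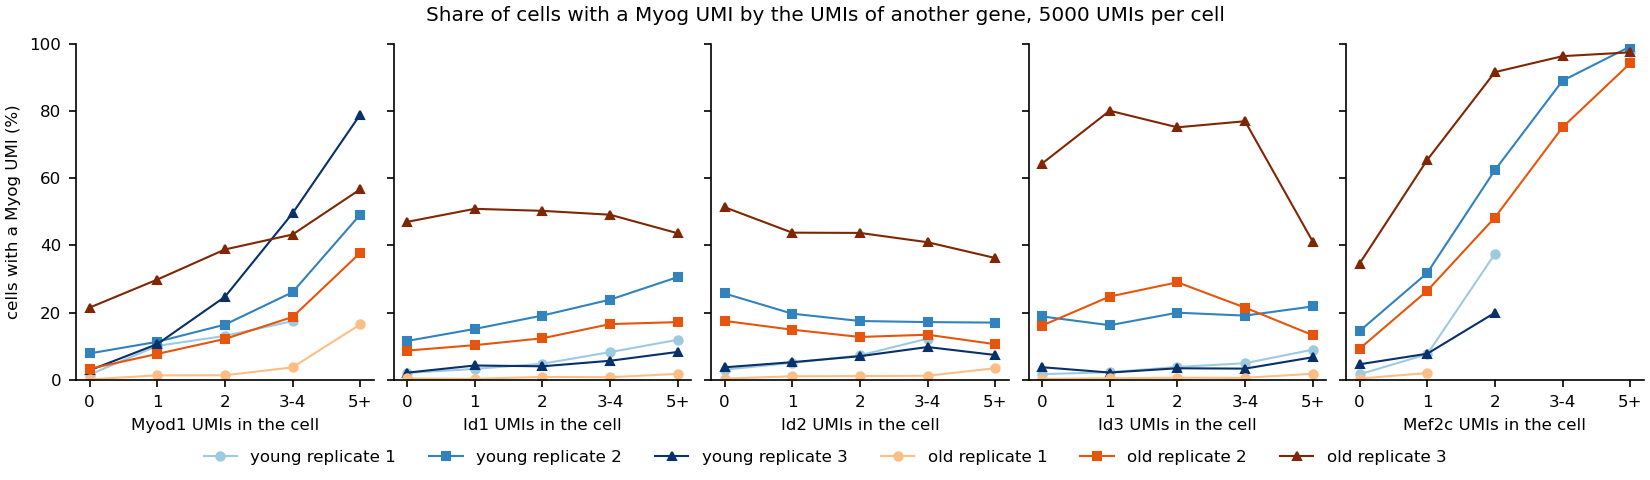
Share of cells with a Myog UMI (%) against the UMIs of Myod1, Id1, Id2, Id3 or Mef2c in the same cell, thinned to 5000 UMIs. Lines are the 6 populations, and bins with few cells are left out. The Myod1 and Mef2c lines climb in every population, though the Mef2c line of old replicate 1 runs only from 0 to 1 UMI. The Id3 line of old replicate 3 drops from 77.0% at 3 to 4 UMIs to 41.2% at 5 or more.

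The 4 states give the levels behind these shares. Cells with Myod1 alone had more Id1, Id2 and Id3 than cells with neither gene in 6 of 6 populations. Id3, for instance, was at 299 CPM in cells with neither and 670 CPM in cells with Myod1 alone in young replicate 1, and at 2036 and 2890 CPM in old replicate 3. From Myod1 alone to both, Id3 went from 670, 1052 and 1321 to 733, 1079.9 and 1466 CPM in young and from 762, 2133 and 2889.9 to 738, 1596 and 1963 CPM in old populations. It was thus higher in the 3 young and lower in the 3 old ones, a split that was found by scanning many contrasts and was not tested. Id2 went down in 5 of 6 at that step and Id1 up in 5 of 6. Mef2a, Mef2c and Tcf12 were higher in cells with both than in cells with Myod1 alone in 6 of 6. Mef2c, for instance, was at 27.4 and 211 CPM in young replicate 2 and at 23.0 and 225 CPM in old replicate 3.

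Cells with and without a Myod1 UMI were then compared over the 6 populations, with the population as a block and Myod1 itself left out. The test called 7.18% of 12175 genes, 4.15% higher and 3.03% lower in Myod1-positive cells. Of the 8 members that could be tested, 4 rose and 0 fell: Myog by 3.59 on the log2 scale (SE 0.58, edgeR adjusted p = 0.0302), Mef2a by 0.82 (SE 0.10, adjusted p = 0.00579), Id1 by 0.54 (SE 0.06, adjusted p = 0.00233) and Tcf12 by 0.35 (SE 0.07, adjusted p = 0.0185, higher in 5 of 6). Id1 stood higher in Myod1-positive cells of all 6 populations, at 313 against 164 CPM in young replicate 1 and 1231 against 903 CPM in old replicate 3. Id2 (0.89, SE 0.25, adjusted p = 0.0878), Id3 (0.59, SE 0.18, adjusted p = 0.101) and Mef2c (1.09, SE 0.27, adjusted p = 0.0661) were not called by edgeR, although Id2 and Id3 were higher in 6 of 6. Without old replicate 3, Mef2c was called (adjusted p = 0.00643). DESeq2 called all 3 (adjusted p = 0.00772, 0.00114 and 7.32e-06). Id4 was at -0.10.

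Id1 and Mef2a kept their call when any population was left out. The call of Myog was lost without any population but old replicate 3 (adjusted p = 0.0199 to 0.106), and that of Tcf12 without young replicate 1, old replicate 1 or old replicate 2 (adjusted p up to 0.0655). The number of genes called was as unsteady, from 129 without old replicate 2 to 791 without old replicate 3.

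Other genes were ranked among called genes with a mean log2 CPM above 5. There, those most raised with Myod1 after Myog were Ank1 (2.00), Dapk2 (1.54), Hes6, a Hes family member expressed in myoblasts (1.51), Ckb (1.03) and Dipk2a (0.98). Ier3 (-1.45), Anxa3 (-1.27), the surface antigen gene Ly6a (-1.02), Col8a1 (-0.86), Kitl (-0.86) and Cacnb2 (-0.76) were lowest within the same limit. Of these, Ckb and Ly6a kept their call without any of the populations. Dapk2 lost its call in every omission of a population. Of 6 omissions, Kitl kept its call in 1, Ier3 in 2, Dipk2a in 4 and Ank1 in 5. Hes6, Anxa3, Col8a1 and Cacnb2 each kept theirs in 3. Of the 24 early differentiation genes, 2 rose, the cell cycle inhibitor Cdkn1c (1.36) and the fetal acetylcholine receptor subunit Chrng (1.85). Cdkn1c kept its call in 3 of 6 omissions and Chrng in 1. The list had a median of 2.25, against -0.01 over all genes. Between 0 (without young replicate 1) and 10 of it were called when a population was left out, and DESeq2 called 22. Of 9 other repressors and inhibitors, the bHLH factor Bhlhe41 (0.78) and the zinc finger factor Zeb1 (0.33) rose and Heyl, a Notch target (-1.39), fell. Zeb1 lost its call without young replicate 1, old replicate 1 or old replicate 2, and Heyl kept its call in 1 of the 3 omissions in which it could be tested. Among 7 Mef2 relatives and cofactors, Mamstr, a coactivator of Mef2 (1.10), rose and the deacetylase gene Hdac7 (-0.44) fell, the latter call being lost in the same 3 omissions as that of Zeb1. Of 16 BMP and SMAD genes tested edgeR called 0 (5 at an unadjusted p under 0.05, 3 by DESeq2). It also called 0 of 20 S phase genes (2 at an unadjusted p under 0.05, 1 by DESeq2), 0 of 20 G2 and mitosis genes (7 and 2) and 0 of 4 other bHLH partners (1 and 0).

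Cells with and without a Myog UMI were compared in the same way. The positive classes held 299, 2158 and 559 young and 64, 1250 and 5581 old cells. Here 29.9% of 12383 genes were called, 13.1% higher and 16.8% lower, so a call is a common event in this comparison. Of the 8 members tested, 5 rose and 0 fell.

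Mef2c was at 629, 204 and 102 CPM in Myog-positive and at 17.1, 28.2 and 15.5 CPM in Myog-negative young cells. In the old it was at 241, 225 and 236 CPM against 8.53, 33.6 and 23.5 CPM. Every positive class was above every negative class, with a log2 fold change of 3.57 (SE 0.45, edgeR adjusted p = 0.00392). Mef2a rose by 1.73 (SE 0.17, adjusted p = 0.000398), from 93.4, 168 and 94.6 CPM to 409, 502 and 192 CPM in the young and from 62.8, 231 and 146 CPM to 353, 752 and 392 CPM in the old. Myod1 rose by 1.85 (SE 0.44, adjusted p = 0.0299) and was higher in 6 of 6, at 269 against 35.2 CPM in young replicate 3 and at 1122 against 777 CPM in old replicate 3. That call was lost without young replicate 1, 2 or 3 or old replicate 2 (adjusted p = 0.0372 to 0.0827 over the 6 omissions).

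The inhibitor Id1 rose too, by 0.44 (SE 0.10, adjusted p = 0.00810), in 5 of 6 populations. It stood at 350, 720 and 793 CPM against 185, 502 and 581 CPM in the young and at 428, 884 and 1157 CPM against 297, 758 and 1247 CPM in the old. Old replicate 3 was the exception. Tcf12 rose by 0.35 (SE 0.07, adjusted p = 0.00574), in 6 of 6. Id2 (0.27, SE 0.17, adjusted p = 0.274), Id3 (0.23, SE 0.18, adjusted p = 0.395) and Id4 (0.02) were not called. Id3 was lower with Myog in old replicate 2 (1596 against 2037 CPM) and old replicate 3 (1941 against 2795 CPM) and higher in the other 4. Mef2a, Mef2c, Id1 and Tcf12 kept their call without any of the populations.

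These class differences were compared between old and young with an interaction term. edgeR called 0 of 12383 genes (295 at an unadjusted p under 0.05), and DESeq2 called 1. For Id1 the rise with Myog was smaller in the old by 0.40 (SE 0.17, unadjusted p = 0.0398, adjusted p = 1), and for Id3 the difference was -0.43 (SE 0.34).

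The muscle program accompanied Myog. Of 24 early differentiation genes, 23 rose and 0 fell, with a median of 5.03 on the log2 scale against -0.06 over all genes. The largest of the list were the sarcomeric actins Actc1 (8.25, SE 0.96) and Acta1 (7.60, SE 0.97), the embryonic myosin heavy chain Myh3 (7.68, SE 0.97) and the myosin binding protein Mybph (7.47, SE 0.78). The troponin Tnnc2 (7.56) and the myosin light chain Myl4 (6.87) were also among the 6 largest rises of called genes with a mean log2 CPM above 5. Between 19 and 22 of the list were called when 1 population was left out. Cdh15 alone was not called (1.57, adjusted p = 0.078).

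S phase genes were lower with Myog. Of 20 S phase genes, 0 rose and 17 fell (14 to 18 without 1 population), with a median of -0.71, led by Cdc6 (-1.03), Hells (-0.97), Tyms (-0.95) and Gins2 (-0.92). Of 20 G2 and mitosis genes, 3 fell, a share near the 16.8% of all genes that were lower: Mki67 (-0.98), Bub1 (-0.94) and Aurkb (-0.82), with a list median of -0.86. That count ran from 0 without young replicate 2 to 12, while 16 of the 20 had an unadjusted p under 0.05 and DESeq2 called all 20. Both classes hold cells thinned to the same UMI total. Genes detected and the UMI totals before thinning were not compared between them.

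Other partners and repressors moved unevenly with Myog. Of 4 partners, the E protein Tcf4 rose (0.53), the E protein Tcf3 (-0.43) and the myogenic factor Myf5 (-0.53) fell, and Myf6 was at 2.24 (adjusted p = 0.062). Myf5 was seen in 0 of 8444 thinned cells of young replicate 1, so its fall rests on the other populations. Of 10 repressors and inhibitors tested, 4 rose: Mdfi, a MyoD family inhibitor (1.99), Zeb1, a zinc finger repressor of E-boxes (1.23), and, named after their values were seen, the bHLH factor Bhlhe41 (0.96) and the zinc finger factor Snai1 (0.38). The call of Snai1 held in 2 of 6 omissions of a population, and the count of rises ran down to 2. The mesenchymal bHLH factors Twist2 (-1.38) and Twist1 (-1.18) fell. Of the Mef2 relatives and cofactors, Mef2d (0.91) and Mamstr (0.85) rose and Hdac7 (-0.69) fell. Mamstr lost its call without old replicate 3.

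Of 15 BMP and SMAD genes, Bmpr2 rose (0.28) and the BMP antagonist Grem1 (-1.81) and the inhibitory SMAD gene Smad7 (-0.67) fell. As shares of the list, these counts are below the 13.1% of all genes that were higher and the 16.8% that were lower, and the call of Bmpr2 held in only 2 of 6 omissions. Among 11 progenitor genes, Spry1, an inhibitor of growth factor signalling (1.39), rose and Cd34 (-1.18), Pax3 (-0.62), Myf5 and Vcam1 (-0.52) fell, while Pax7 was at -0.50 (adjusted p = 0.10). Pax7 was seen in 1 of 10631 thinned cells of young replicate 3, so its value rests on the other populations. Without old replicate 3, Pax3, Myf5 and Vcam1 lost their call, which left 1 of the list lower. Of all called genes with a mean log2 CPM above 5, the largest falls were those of Lce1g (-1.95), Fxyd5 (-1.88), Grem1, Prl2c2 (-1.72), Ier3 (-1.66) and Tm4sf1 (-1.64).

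Because most Myog-positive cells also had Myod1, the comparison was repeated among cells with a Myod1 UMI, a choice made after the other results were seen. It called 33.8% of 10951 genes, 15.2% higher and 18.5% lower. Mef2c (3.46, SE 0.31) and Mef2a (1.71, SE 0.10) rose as before, and Tcf12 rose by 0.34 (SE 0.08, edgeR adjusted p = 0.00799). Id1 rose by 0.25 (SE 0.08, adjusted p = 0.0272), a call lost without young replicate 1, 2 or 3 or old replicate 2 (adjusted p up to 0.114). Id2 was at -0.09 and Id3 at -0.08, neither called. Without young replicate 3, Id2 was called lower (-0.18, adjusted p = 0.0481). Of the early differentiation genes 23 of 24 rose, of the S phase genes 18 of 20 fell, and Pax7, nearly absent from young replicate 3, fell by 0.72.

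**Figure D5:**
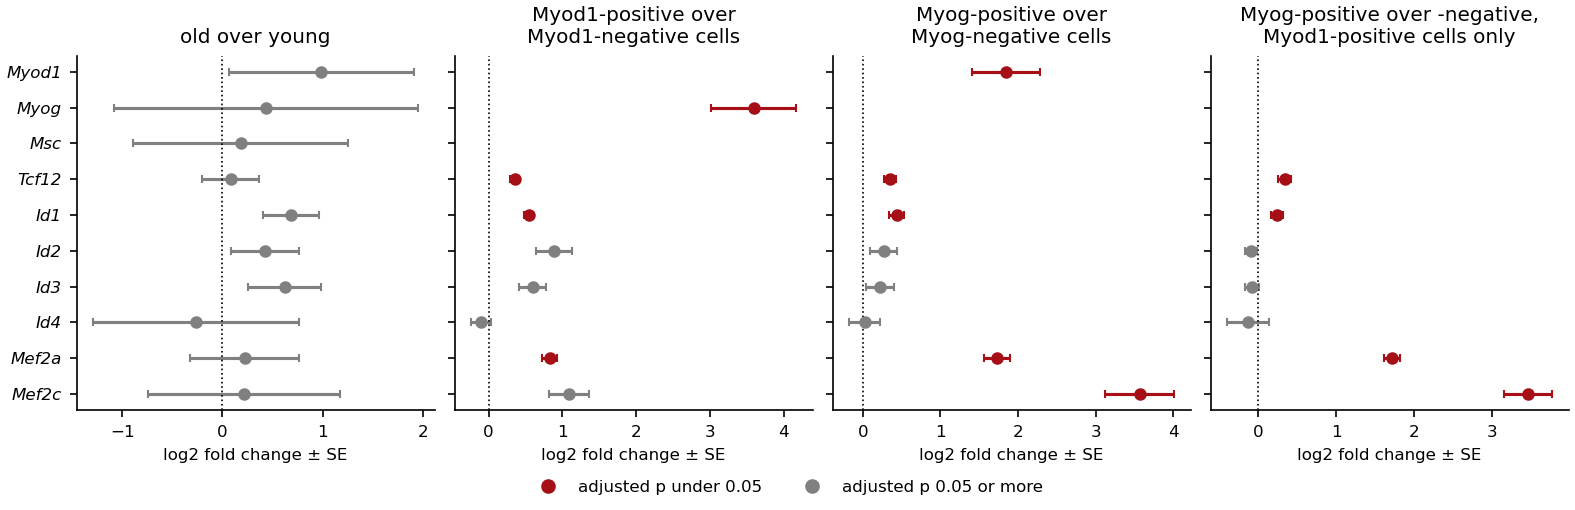
Log2 fold change with its SE for each member in 4 comparisons, edgeR, red where the adjusted p is under 0.05. Old over young shows no red point. The Mef2 genes lie far to the right with Myog, at 3.57 for Mef2c and 1.73 for Mef2a, and Id2 and Id3 lie near 0 once only Myod1-positive cells are used.

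The genes most like each factor across cells were read from the correlation of log-scaled UMIs within a population, as the median over the 6 and among 7805 genes. It is a description, since cells of a population share their library. Myog was most like the muscle genes Mylpf (0.75), Acta1 (0.71), Tnnt3 (0.69), Myl1 (0.68) and Mymk (0.66), all contractile genes but Mymk, the fusion factor myomaker. Myod1 was most like Hes6 (0.38), the titin gene Ttn (0.33), Rbm24 (0.31), Chrna1 (0.31) and Lrrn1 (0.29), with lower values throughout. Id1 was most like Id3 (0.31), then Myod1 (0.19), Igfbp5 (0.16), Hes6 (0.15) and Id2 (0.15). Among the members, Myog had its highest values with Mef2c (0.47), Mef2a (0.34) and Myod1 (0.28), and its value with Id3 ran from -0.44 to 0.10 over the populations.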

How the data were processed

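The authors deposited, for each of the 6 samples, a gene by barcode matrix of raw UMI counts, which came from Cell Ranger 7.0.0 (young and old replicate 1) or 7.2.0 (the other 4), per the file headers. The submitters' processing notes name Cell Ranger 7.2.0 and build mm10 for every sample. The treatment of intronic reads is not given in the sources used here.

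The members and gene lists were chosen with earlier results of these data known. The 21485 gene identifiers in all matrices were used. A barcode counted as a cell with at least 1000 UMIs, at least 500 genes and mitochondrial UMIs under 15%, and doublets were not removed. Depth was 133974782 to 196481316 UMIs per sample. For shares, co-detection and cell classes each cell was thinned to 5000 UMIs (random seed 1). Counts summed over the cells of a sample or class entered the two-sided quasi-likelihood test (robust) of edgeR 4.0.16, run in R 4.3.3 after TMM scaling and filterByExpr, with Benjamini-Hochberg adjusted p under 0.05 as the call, old against young with the gene list as a term, cell classes with the sample as a block. The gene that defines a class was left out. Standard errors are the absolute log2 fold change over the square root of F. Co-detection ratios, used where 5 or more cells were expected, and correlations were not tested.

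Of each list, up to 4 called genes with the largest fold change were named, and over all genes up to 6 per direction at a mean log2 CPM above 5. Chromosome shifts are medians over the other genes of a chromosome. Coordinates are from GENCODE on GRCm38, the build of mm10. On simulated counts the class fits recovered 96% (Myog) and 100% (Myod1) of 100 genes changed by 1 on the log2 scale, with 12 and 19 false calls among 12214 and 12044 genes. In all simulations the changed genes were drawn from those with higher counts, and every gene had the same dispersion. The change was also the same in every population that had it, so these shares do not give the recovery of real changes. Alternatives were DESeq2 1.42.0, other scalings, no filter, 3000 UMIs or no thinning, positive at 2 UMIs, without the 10% of cells with the most UMIs, the replicate block and leaving out each sample.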

Additional observations from a re-analysis of the deposited data

Results flagged for a closer look

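From cells with Myod1 alone to cells with both Myod1 and Myog, Id3 was higher in all 3 young populations (log2 changes of 0.13, 0.04 and 0.15) and lower in all 3 old ones (-0.05, -0.42 and -0.56), so that the groups moved in opposite directions. The mean change was -0.45 in old minus young. It was the only complete split of signs between groups in a scan of the members over steps between states and over Myog and Myod1 classes. A scan of many contrasts can turn up such a split without a difference between groups. The difference was not tested, and the changes in young replicate 2 and old replicate 1 were the smallest, the latter resting on 48 cells with both genes. A related contrast, all Myog-positive against all Myog-negative cells, differed between old and young by -0.43 for Id3 (SE 0.34, edgeR adjusted p = 1).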

How the results depend on the processing

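Old against young, the count of genes called was 219 with DESeq2, 2 without TMM scaling, 0 without the gene list term, 0 in the longer gene list only and 0 to 3 when each sample was left out. No member was called under any of these. Same-numbered populations deviated together in replicates 1 and 2 (correlations 0.39 and 0.28) but not in replicate 3 (-0.12). Young replicate 2 and old replicate 3 also did (0.33), and the first replicates of both groups share the shorter gene list. Whether the numbers pair the samples cannot be told from these values. The fit with the replicate block called 1 gene and put Myog at -0.21, Msc at -0.29 and Id4 at 0.32. Msc was at -0.18 on the longer list and at -0.0094 without the 10% of cells with the most UMIs. Left out in turn, single samples moved Myog from -1.10 to 1.62, Msc from -1.20 to 0.82, Tcf12 from -0.10 to 0.34, Id4 from -0.76 to 1.45, Mef2a from -0.29 to 0.83 and Mef2c from -0.64 to 1.21. Without young or old replicate 1 the gene list term fits the other fully, so these omissions repeat the longer-list fit. The upper ends of Myog, Mef2a and Mef2c come from there. Between Myog classes 2457 to 3820 genes were called over the samples left out, and 173 with no replicate block, which also put Id3 at -0.017 and Id4 at -0.067. Id4 was at -0.0074 with no filter, -0.34 at 3000 UMIs, -0.12 at 2 or more UMIs and -0.022 without the 10% of cells with the most UMIs, and from -0.10 to 0.18 over the samples left out. Between Myod1 classes 1511 genes were called with DESeq2, 202 unthinned (187 higher and 15 lower, against 505 and 369), 1344 at 2 or more UMIs, 0 with no replicate block and 129 to 791 over the samples left out, and Id4 was at 0.087 at 3000 UMIs. With no replicate block the differences between populations enter the spread; the cause of the other shifts was not tested. Of the members' calls, Myog with Myod1 was lost at 3000 UMIs (adjusted p = 0.0529), and Tcf12 and Mef2a with Myod1 when unthinned (adjusted p = 0.228 and 0.0901), where Id2 and Mef2c gained one (adjusted p = 0.0467 and 0.0263). With no replicate block, Myod1, Id1 and Tcf12 lost their call with Myog (adjusted p = 0.550, 0.822 and 0.736) and all 4 members theirs with Myod1. The class difference between old and young gave 1 gene with DESeq2 and 0 to 3 over the samples left out, with Myod1 from -1.14 to 0.17, Id2 from -0.52 to 0.016, Id4 from -0.26 to 0.58, Mef2a from -0.013 to 0.56 and Mef2c from -0.47 to 0.75. Among Myod1-positive cells Id3 ran from -0.14 to 0.0046 and Id4 from -0.38 to 0.11, and Tcf12 lost its call at 3000 UMIs (adjusted p = 0.158). Unthinned, 30 pairs were above 1 in every sample, and 16 to 22 under the other settings. Mef2a, Mef2c, Id1 and Tcf12 with Myog kept their direction in all 13 alternatives, and Mef2a and Mef2c their call too. Depth limits Msc, which stayed too rare for statements about single cells, and Id4, whose ratios rest on few cells.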

Other observations

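Cells in which Myog was seen without Myod1 were rare among all cells, and their levels differed between populations. In young replicate 1 such cells had 936 CPM of Myog, 515 CPM of the fusion gene Mymk and 582 CPM of Mef2c, against 1211, 558 and 657 CPM in cells with both. In old replicate 3 the order was reversed for Mymk, at 560 CPM without and 407 CPM with Myod1, and for Mef2c, at 510 and 225 CPM. In young replicate 3 they had 332 CPM of Myog, 12.4 CPM of Mymk and 48.1 CPM of Mef2c, against 1382, 108 and 148 CPM in cells with both. Id1 was lower in cells with Myog alone than in cells with both in all 5 populations with values, from 269 against 397 CPM in young replicate 1 to 854 against 1168 CPM in old replicate 3. Id3 was lower in young replicates 1 and 3 and old replicate 3, at 1240.2 against 1079.9 CPM in young replicate 2 and at 1597 against 1596 CPM in old replicate 2. In old replicate 1 only 16 cells had Myog alone, and no level is given.

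Cdkn1a, the gene of the cell cycle inhibitor p21, was higher in cells with both factors than in cells with Myod1 alone in 6 of 6 populations, but from different levels. It stood at 3643 CPM in cells with both factors in old replicate 2 and at 120 CPM in old replicate 3, the population with the most such cells. In cells with Myod1 alone the same populations were at 1518 and 67.8 CPM, and in cells with neither at 897 and 160 CPM. Mki67 was lower in cells with both than in cells with Myod1 alone in 6 of 6 populations, from 63.8 against 79.2 CPM in young replicate 3 to 6.35 against 44.9 CPM in young replicate 1.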
